A study of Mus musculus with 10 samples.

Results

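The early-response transcription factors of the Egr, Nr4a and Klf families and Myc were followed through noise exposure in the mouse cochlea. All 10 probe sets that the platform annotation assigns to Egr1, Egr2, Nr4a1, Nr4a2, Klf4, Klf6 or Myc were taken, whatever their values, out of 12488 probe sets in all. They stand for 7 of the 8252 genes that the annotation names singly. The 7 genes themselves were chosen with earlier results of these data known. Of the 10 probe sets, 8 were bright enough to be tested, covering all 7 genes. The other two, a second probe set each for Egr1 (161802_i_at) and Klf4 (161185_i_at), fell among the 30% of probe sets that were left out as dim. Both Nr4a2 probe sets and that of Myc lay below the lowest mean kept when averaged over the 5 control arrays alone. They passed through their noise arrays. Counts of direction and of overlap over the members are therefore given for all 10 probe sets, without the filter. Counts of calls and of unadjusted p-values are given for the 8 tested.

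Cochlear RNA of female mice aged 10 weeks was hybridised to 10 one-colour Affymetrix arrays, each carrying labelled cRNA from a pool of 8 mice. In each of 2 strains, the exposed mice were given 1 h of octave-band noise (10 kHz) at a level of 105 dB SPL, and RNA was taken 6 h afterwards, while control mice sat in the chamber without noise. For 129X1/SvJ, an inbred strain, there were 3 control and 3 noise arrays, and for B6.CAST, a congenic strain that carries CAST-derived DNA, 2 control and 2 noise arrays. The labels spell the strain of 1 control and 1 noise array, the last of each, as 129XI/SvJ, and these were kept with the others. A pool hides the spread between the mice in it, and the p-values measure the spread between these pools.

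Egr, Nr4a and Klf genes are switched on within minutes to hours of a stimulus, without new protein synthesis, by transcription factors that are already present. Calcium and cyclic AMP signals act through CREB at cyclic AMP response elements, and growth factor and ERK signals act through serum response factor and its partners at CArG boxes. The products are themselves transcription factors that set the next wave of expression. Egr1 and Egr2 are zinc finger proteins that bind GC-rich sites, Nr4a1 and Nr4a2 are orphan nuclear receptors, Klf4 and Klf6 are zinc finger proteins that bind GC-rich and CACCC sites, and Myc, with its partner Max, binds E-boxes and drives growth.

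Promoter windows from RefSeq (build GRCm38.p6), running from 250 bases before to 50 bases after the start of transcription, were read for the question of which stimulus-response elements lie at these starts, and 3 are shown: that of Nr4a1, the gene of largest change with noise, that of its relative Nr4a2, and that of Egr2. Windows of 5 of the 7 genes were used. Capitals mark matches on either strand to a core of the cyclic AMP response element (TGACG), an Egr site (GCGNGGGCG), a TATA box (TATAAA) or a CArG box, which is given by name alone. The full element TGACGTCA, which contains the core, and the AP-1 site TGANTCA were also searched and had no match in these windows. For Egr2, which has several annotated starts, the window is one of 5.
Nr4a1 (chr15:101266596-101266895, plus strand): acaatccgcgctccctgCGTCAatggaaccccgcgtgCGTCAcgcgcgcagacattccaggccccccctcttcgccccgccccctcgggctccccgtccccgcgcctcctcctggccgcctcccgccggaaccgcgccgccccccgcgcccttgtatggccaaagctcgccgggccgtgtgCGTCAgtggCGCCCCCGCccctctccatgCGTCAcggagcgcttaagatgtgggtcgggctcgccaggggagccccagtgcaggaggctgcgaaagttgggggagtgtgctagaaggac
Nr4a2 (chr2:57123954-57124253, minus strand): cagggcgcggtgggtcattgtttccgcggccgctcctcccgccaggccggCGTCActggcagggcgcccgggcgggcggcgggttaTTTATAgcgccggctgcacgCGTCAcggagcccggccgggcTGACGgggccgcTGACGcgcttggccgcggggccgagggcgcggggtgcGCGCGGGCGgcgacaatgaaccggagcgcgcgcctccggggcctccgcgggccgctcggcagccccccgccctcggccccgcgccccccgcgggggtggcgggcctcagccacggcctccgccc
Egr2 (chr10:67537619-67537918, plus strand): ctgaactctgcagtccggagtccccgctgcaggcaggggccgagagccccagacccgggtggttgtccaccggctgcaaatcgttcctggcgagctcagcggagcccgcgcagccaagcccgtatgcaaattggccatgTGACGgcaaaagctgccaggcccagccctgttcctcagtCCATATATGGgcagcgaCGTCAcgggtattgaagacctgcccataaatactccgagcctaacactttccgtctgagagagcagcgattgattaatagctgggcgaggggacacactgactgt

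The Nr4a1 window held 4 such cores, with their leftmost bases at -233, -213, -69 and -40 from the start, and 1 Egr site at -60. The Nr4a2 window also held 4 cores (-200, -144, -123 and -111) and 1 Egr site (-74), with a TATA box on the reverse strand at -164. The Egr2 window held 2 cores (-111 and -55) on either side of a CArG box at -72. Of the other 4 Egr2 windows, 2 that overlap it hold the same matches, 1 just upstream had a CArG box alone and 1 farther upstream had none of the 6 motifs. The Klf4 window (chr4:55532426-55532725, minus strand) had 1 core and 2 Egr sites, and the Klf6 window (chr13:5861239-5861538, plus strand) had none of the 6 motifs. Over all 32851 windows of this length, a core was present in 20.8%, an Egr site in 5.55%, a TATA box in 13.6%, a CArG box in 1.63%, the full element in 1.79% and an AP-1 site in 7.81%. A match is a description of these letters and not a measured binding site.

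Nr4a1, also known as Nur77, had the largest change of the 7 genes in 129X1/SvJ. Its deposited signal (probe set 102371_at) was 348.6, 259.8 and 210.1 on the 3 control arrays of 129X1/SvJ and 3270.2, 1400.1 and 1734.8 on the 3 noise arrays. In B6.CAST it was 212.8 and 122.0 on the control arrays and 509.8 and 339.6 on the noise arrays. Every noise array lay above every control array of its strain, and all 3 noise arrays of 129X1/SvJ lay above both of B6.CAST. In 129X1/SvJ the mean signal went from 272.8 ± 70.2 (SD, n = 3) to 2135 ± 997 (SD, n = 3). On the scale used for all tests, log2(signal + 16) after quantile normalisation, Nr4a1 rose by 2.84 ± 0.32 (SE), a 7.17-fold change, with an adjusted p of 0.00195 in limma. In B6.CAST the mean signal was 167.4 ± 64.2 (SD, n = 2) in control and 424.7 ± 120.4 (SD, n = 2) after noise, and the change was 1.26 ± 0.40 (SE), which did not pass the test over all probe sets (adjusted p = 0.9999).

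Nr4a2, or Nurr1, known for its part in the development of dopamine neurons, was measured by 2 probe sets drawn from the same reference sequence, which are therefore not independent. Probe set 92248_at read 26.0, 15.3 and 41.7 on the control arrays and 118.9, 123.3 and 65.1 on the noise arrays of 129X1/SvJ, and 36.6 and 37.3 against 48.0 and 56.2 in B6.CAST. Probe set 92249_g_at read 23.9, 23.4 and 34.7 against 142.0, 62.4 and 56.4 in 129X1/SvJ, and 30.1 and 29.3 against 42.1 and 61.0 in B6.CAST. On both probe sets, control and noise arrays did not overlap in either strain. The signals lay near the lowest mean signal kept for testing, 42.9, where the added constant of 16 understates a change. The log2 differences in 129X1/SvJ were 1.27 ± 0.30 and 1.01 ± 0.30 (SE), with adjusted p-values of 0.130 and 0.269 in limma, and in B6.CAST 0.35 ± 0.36 and 0.53 ± 0.37 (SE). Neither probe set passed the test in either strain. With array weights in the fit, 92248_at passed it in 129X1/SvJ at 1.44 (adjusted p = 0.0439).

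Egr1, known also as Zif268 or Krox24, had the second largest change in 129X1/SvJ. Its signal (98579_at) was 237.8, 278.0 and 247.1 on the control arrays and 2691.7, 805.7 and 854.4 on the noise arrays of 129X1/SvJ. In B6.CAST it was 186.1 and 212.1 in control and 591.4 and 321.5 after noise. The noise arrays of both strains lay above all 5 control arrays, and among them noise array 1 of 129X1/SvJ stood far above the rest. The mean signal in 129X1/SvJ went from 254.3 ± 21.0 (SD, n = 3) to 1451 ± 1075 (SD, n = 3). Egr1 rose there by 2.20 ± 0.41 (SE) on the log2 scale, a 4.59-fold change (adjusted p = 0.0454 in limma), close to the threshold of 0.05. In B6.CAST the change was 1.08 ± 0.50 (SE) and did not pass the test. The call in 129X1/SvJ was lost when any 1 of the 3 control arrays of that strain was left out (adjusted p from 0.129 to 0.181). It was also lost without either control array or the first noise array of B6.CAST (0.0544 to 0.0785), while the change stayed between 1.64 and 2.50 with any 1 array left out. The dim second probe set of Egr1 read 36.4, 31.2 and 63.4 against 56.9, 36.0 and 36.6 in 129X1/SvJ and 14.7 and 27.8 against 5.3 and 42.7 in B6.CAST. In a fit with no filter on dim probe sets it differed with noise by -0.20 ± 0.35 (SE) in 129X1/SvJ, so the 2 probe sets of Egr1 did not give the same reading.

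**Figure D1:**
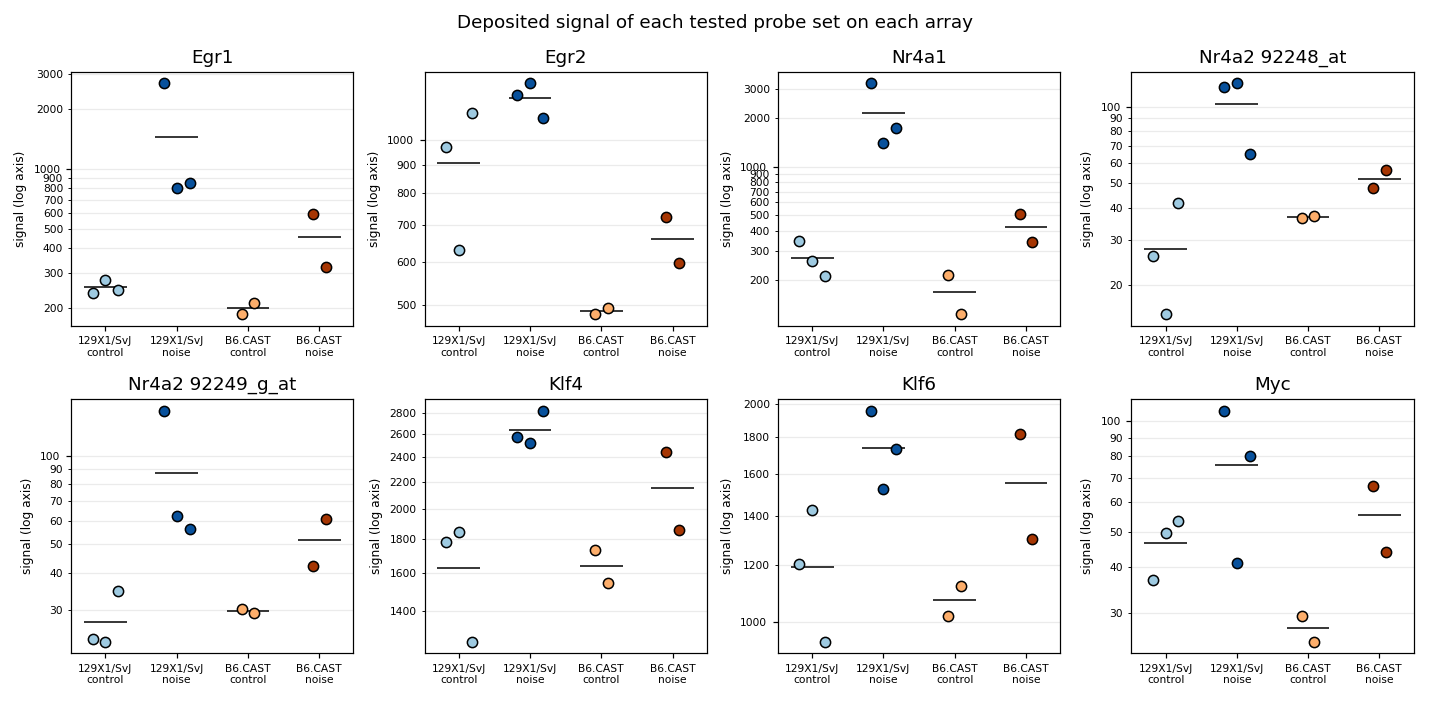
Deposited signal (log axis) of each of the 8 tested probe sets on each of the 10 arrays, by strain and exposure, with lines at the group means. Nr4a1 and Egr1 were highest on the 3 noise arrays of 129X1/SvJ, with the first of those arrays at 3270.2 and 2691.7, and Egr2 was lower on the 4 arrays of B6.CAST than on 5 of the 6 arrays of 129X1/SvJ.

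Egr2, or Krox20, is the regulator of myelination in Schwann cells and of hindbrain segments in the embryo. Its signal (102661_at) was 968.5, 630.8 and 1119.3 on the control arrays and 1205.7, 1266.0 and 1096.3 on the noise arrays of 129X1/SvJ, which overlap. In B6.CAST it was 481.0 and 494.7 in control and 723.4 and 597.0 after noise, with no overlap. The log2 differences with noise were 0.45 ± 0.21 and 0.41 ± 0.26 (SE) in 129X1/SvJ and B6.CAST, and neither passed the test. Without control array 2 of 129X1/SvJ, the array with the highest Gapdh 3′ to 5′ ratio (29.2), the difference in 129X1/SvJ was 0.20, and when noise array 1 of B6.CAST was left out the difference there was 0.26.

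Neither Klf gene passed the test with noise in either strain, although control and noise arrays lay apart. Klf4, one of the factors used to reprogram cells to pluripotency, read 1785.3, 1845.5 and 1260.2 (99622_at) on the control arrays and 2570.8, 2519.7 and 2821.5 on the noise arrays of 129X1/SvJ. In B6.CAST it read 1737.4 and 1547.6 in control and 2446.4 and 1860.1 after noise. The noise arrays lay above the control arrays in both strains. The log2 difference was 0.73 ± 0.16 (SE) in 129X1/SvJ, with an adjusted p of 0.0971 in limma, and 0.37 ± 0.20 (SE) in B6.CAST. The other Klf4 probe set read at most 2.6 on any array and carries no usable level.

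Klf6, known as a tumour suppressor and an injury-response gene, read 1202.9, 1428.1 and 940.1 (98083_at) on the control arrays and 1955.4, 1527.4 and 1728.8 on the noise arrays of 129X1/SvJ. In B6.CAST it read 1019.2 and 1122.6 in control and 1813.4 and 1299.8 after noise. As for Klf4, control and noise arrays did not overlap in either strain. The log2 differences were 0.59 ± 0.18 (SE; adjusted p = 0.274 in limma) in 129X1/SvJ and 0.49 ± 0.22 (SE) in B6.CAST.

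Myc was dim throughout. Its signal (104712_at) was 36.8, 49.6 and 53.4 on the control arrays and 106.6, 41.0 and 80.1 on the noise arrays of 129X1/SvJ, and 29.5 and 25.1 against 66.7 and 44.0 in B6.CAST. Control and noise arrays overlapped in 129X1/SvJ, where the second noise array lay below 2 of the controls, and did not overlap in B6.CAST. The log2 differences were 0.28 ± 0.33 and 0.72 ± 0.41 (SE) in 129X1/SvJ and B6.CAST, and with 1 array left out that in 129X1/SvJ ran from 0.12 to 0.58. Myc was the 1 gene of the 7 whose tested probe set had a larger estimate in B6.CAST.

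Counted together, 2 of the 8 probe sets, Nr4a1 and Egr1, were called higher with noise in 129X1/SvJ. Of all 8695 tested probe sets, 0.460% were called higher there. With no filter 1 of the 10, Nr4a1, was called, among 40 of all 12422 called in either direction. The genes were chosen with earlier results of these data known, so these counts describe them and do not test them as a set. In the fit with no filter, 8 of all 10 had a log2 difference above 0, with a median of 0.66, against 46.5% of all 12422 probe sets that are not controls and their median of -0.02. Control and noise arrays of 129X1/SvJ did not overlap, with noise higher, for 6 of the 10, against 7.89% of all 12422. In B6.CAST limma called none of the 8 (0.0460% of all probe sets were called higher). The unadjusted p was under 0.05 there for 2 of the 8, Nr4a1 and Klf6, against 183 of all 8695 probe sets. With no filter, 9 of the 10 were above 0 there, with a median of 0.45, against 50.7% and a median of 0.0041 over all 12422. For 9 of the 10, among them the Klf4 probe set with no usable level, the noise arrays lay above the controls, against 16.9% of all 12422 with 2 arrays in each group. In the mean of both noise effects Nr4a1 was called, at 2.05 ± 0.26 (SE; adjusted p = 0.00369 in limma), and 0.414% of all probe sets were called higher. Egr1, at 1.64 ± 0.33 (SE), had an adjusted p of 0.0703 there and passed when noise array 1 of 129X1/SvJ was left out (1.37, adjusted p = 0.0136).

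**Figure D2:**
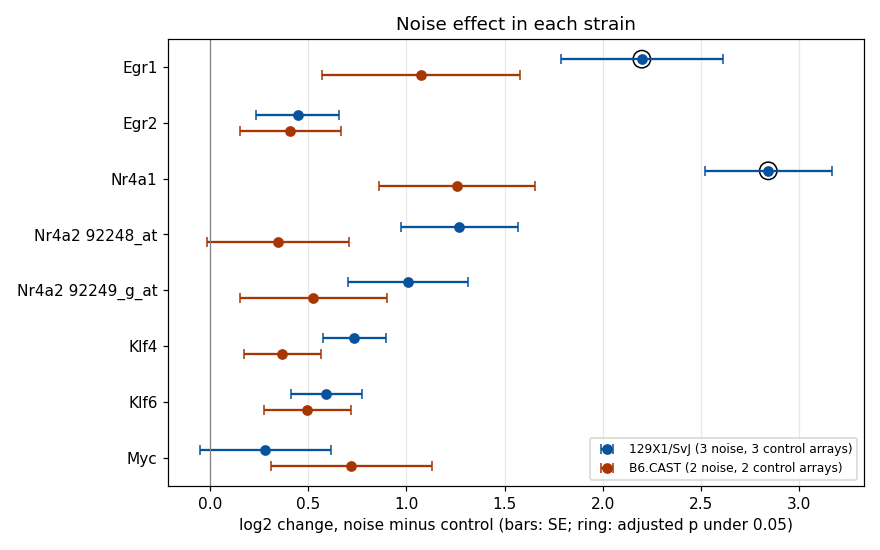
log2 change with noise of the 8 tested probe sets in each strain, with bars of 1 SE and rings around those with an adjusted p under 0.05. The estimates of Nr4a1 and Egr1 in 129X1/SvJ, at 2.84 and 2.20, are the 2 that passed the test. No estimate for these 8 probe sets lies below 0, but those of Nr4a2 and Myc passed the brightness filter through their noise arrays. The dim probe sets of Egr1 and Klf4, not shown, gave -0.20 and -0.06 in 129X1/SvJ and -0.13 and 0.10 in B6.CAST.

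A few arrays stood apart from the rest. Noise array 1 of 129X1/SvJ correlated less well with the others (mean r = 0.910) than the remaining arrays did (0.943 to 0.955). In deposited signal it was the highest noise array of its group for Egr1, Nr4a1, Klf6, Myc and 1 of the 2 Nr4a2 probe sets. After normalisation noise array 3 was the highest for Myc, at 6.66 against 6.59 on noise array 1. Against the mean of its controls, Egr1 was 3.35 higher on noise array 1 and 1.60 and 1.64 higher on the other 2, on the log2 scale. Nr4a1 was 3.57 higher there and 2.35 and 2.61 higher on the others. Without that array, Nr4a1 rose by 2.49 and Egr1 by 1.64, and both still passed the test (adjusted p = 0.00476 and 0.0354 in limma). The Gapdh control probe sets gave a 3′ to 5′ signal ratio, a sign of RNA degradation when high, that reached 29.2 in 1 control array of 129X1/SvJ (number 2) and 6.94 in noise array 1 of B6.CAST, while the rest ran from 0.790 to 1.40. In B6.CAST the first noise array read higher than the second for Egr1, Egr2, Nr4a1, Klf4, Klf6 and Myc. Without it, the change in B6.CAST was 0.61 for Egr1, 0.94 for Nr4a1, 0.26 for Egr2, 0.33 and 0.64 for the Nr4a2 probe sets, 0.20 for Klf4, 0.27 for Klf6 and 0.38 for Myc.

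Summed signals of blood cell markers also differed between the groups. In bulk RNA, fewer cells of a type and less RNA per cell cannot be told apart. The summed signal of 12 tested neutrophil markers ranged from 3493 to 21315 on the control arrays and from 12423 to 37151 on the noise arrays of 129X1/SvJ, with its highest value on the first noise array. In B6.CAST it ranged from 5981 to 19972 in control and from 2375 to 2660 after noise. All 12 were higher with noise in 129X1/SvJ (median 0.79) and lower with noise in B6.CAST (median -1.84). None passed the test in limma. The unadjusted p was under 0.05 for 1 of the 12 in 129X1/SvJ and 7 in B6.CAST, against 1003 and 183 of all 8695 tested probe sets. The summed signal of 9 tested macrophage markers was 3338 to 5389 and 5323 to 6845 in 129X1/SvJ (control and noise), and 6547 to 7861 and 6209 to 7431 in B6.CAST. With noise, 8 of these 9 were higher in 129X1/SvJ (median 0.26) and 4 in B6.CAST (median -0.05). None was called in limma in either strain, with an unadjusted p under 0.05 for 3 and 1 of them. In the mean of both noise effects 1 macrophage marker was called higher, where 0.414% of all 8695 tested probe sets were called higher. In control mice 1 macrophage marker was called higher in B6.CAST than in 129X1/SvJ. There 80 of all 8695 were called in either direction, 30 of them lower in B6.CAST. Of 10 listed erythroid markers 8 were tested, and their summed signal was 26303 to 47408 and 33962 to 48441 in 129X1/SvJ (control and noise), and 20980 to 36079 and 19703 to 22754 in B6.CAST. With noise, 5 of these 8 were higher in 129X1/SvJ (median 0.15) and 7 were lower in B6.CAST (median -0.80), with none called in limma. The part of these cells in the results was not tested. Cochlear tissue was represented on every array: the 6 tested hair cell markers summed to between 18756 and 30413. Most of that sum came from Calb2 and Pvalb, calcium-binding proteins that other cells express too, with group means of 8627 to 10963 and of 7925 to 9043. Myo7a, a hair cell myosin, had group means of 298.7 to 338.0 and Myo6 of 1444 to 2617, and Coch, of the spiral ligament, had a mean signal between 14699 and 17243 in the 4 groups. Atoh1 was too dim to be tested, and Pou4f3 and Otof were not analysed here.

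The estimated noise effect was smaller in B6.CAST than in 129X1/SvJ on 7 of the 10 probe sets in the fit with no filter (it was larger there for 55.0% of all 12422), but no difference between the strains' effects passed the test. For Nr4a1 the difference (B6.CAST minus 129X1/SvJ) was -1.58 ± 0.51 (SE), with a 95% interval from -2.71 to -0.46 and an adjusted p of 0.997 in limma. For Egr1 it was -1.12 ± 0.65 (SE), with an interval from -2.55 to 0.31, and it moved to -0.55 without noise array 1 of 129X1/SvJ, to -0.67 without the second noise array of B6.CAST and to -1.57 without the first. The Nr4a2 probe sets gave -0.92 ± 0.47 and -0.48 ± 0.48 (SE), and Klf4 gave -0.37 ± 0.25 (SE). Egr2 at -0.04 ± 0.33 and Klf6 at -0.10 ± 0.29 (SE) were near 0, with intervals from -0.77 to 0.69 and from -0.72 to 0.53 that still allow a sizeable difference either way, and their sign turned under median centring (0.14 and 0.11). Myc gave 0.44 ± 0.53 (SE). Of all 8695 probe sets, limma called 0 in this comparison (0% called lower in B6.CAST) and 258 had an unadjusted p under 0.05, with Nr4a1 the 1 of the 8 among them.

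**Figure D3:**
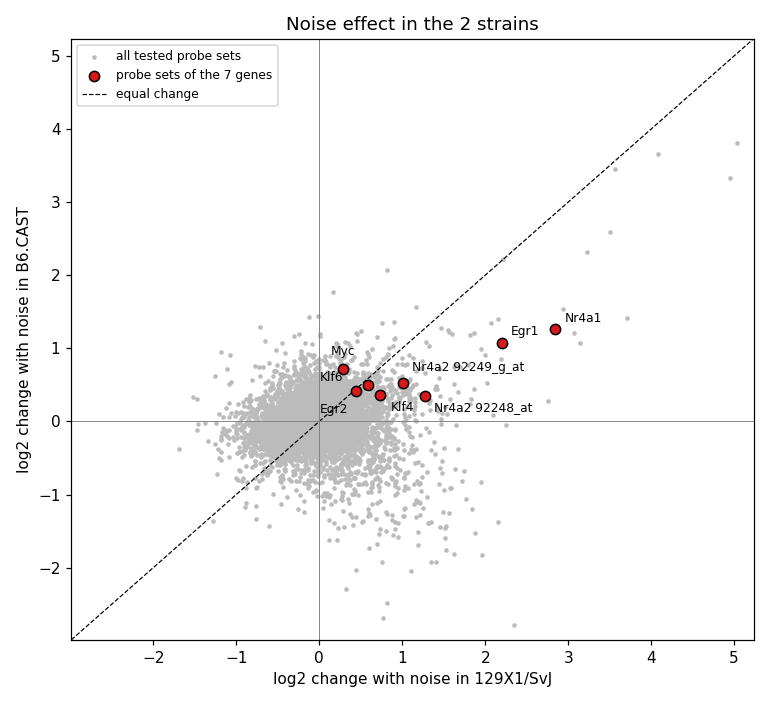
log2 change with noise in 129X1/SvJ (x axis) against that in B6.CAST (y axis) for the 8 tested probe sets (red) and all other tested probe sets (grey), with a dashed line of equal change. Nr4a1 (2.84 and 1.26) and Egr1 (2.20 and 1.08) lie below the line, and Myc (0.28 and 0.72) is the 1 red point above it.

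Strain differences were read within each condition. In control mice none of the 8 probe sets differed past the test in limma between B6.CAST and 129X1/SvJ (0.345% of all probe sets were called lower in B6.CAST). The unadjusted p was under 0.05 for 1 of the 8, Egr2, against 966 of all 8695 probe sets. Egr2 had the largest difference, -0.81 ± 0.24 (SE; adjusted p = 0.204 in limma), and its 2 B6.CAST control arrays lay below all 3 of 129X1/SvJ. Egr1 and Myc also lay lower in B6.CAST without overlap, at -0.35 ± 0.46 and -0.56 ± 0.37 (SE), and with both dim probe sets 5 of the 10 did so, against 14.2% of all 12422 probe sets. Nr4a1 was -0.66 ± 0.36 (SE) with overlapping arrays, and Nr4a2, Klf4 and Klf6 differed by between -0.11 and 0.32.

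After noise, Nr4a1 was lower in B6.CAST, with a log2 difference of -2.24 ± 0.36 (SE), a 4.72-fold difference with an adjusted p of 0.0124 in limma, and was the 1 probe set of the 8 called (0.575% of all probe sets were called lower in B6.CAST). The call was lost without the second noise array of B6.CAST (-1.93, adjusted p = 0.163) and when both arrays of high Gapdh ratio were left out (-2.54, adjusted p = 0.0932), and held when noise array 1 of 129X1/SvJ was left out (-1.88, adjusted p = 0.0180). Egr1 was -1.47 ± 0.46 (SE; adjusted p = 0.212) and moved to -0.90 when noise array 1 of 129X1/SvJ was left out, to -1.02 without the second noise array of B6.CAST and to -1.92 without the first. Egr2 was -0.85 ± 0.24 (SE; adjusted p = 0.136) and Klf4 -0.34 ± 0.18 (SE). With 1 of the 2 Nr4a2 probe sets, 5 of the 10 lay lower in B6.CAST without overlap, against 13.9% of all 12422 probe sets. All 12 neutrophil markers were lower too in this comparison (median -2.57), with none called in limma. The unadjusted p was under 0.05 for 11 of them, against 920 of all 8695 tested probe sets. Of the 8 tested erythroid markers, 7 were lower (median -1.14), 5 had an unadjusted p under 0.05 and 1 was called, Hbb-b2, a globin, at -2.51 (adjusted p = 0.0422 in limma). The part of these cells in the Nr4a1 difference was not tested.

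For Egr2 the strain difference was -0.81 in control mice and -0.85 after noise. The 4 tested Schwann cell markers (Pmp22, Mbp, Mag and Sox10, of 8 listed) were also lower in B6.CAST in both conditions, 4 of 4 each time. Of all 8695 tested probe sets, 43.6% were higher in B6.CAST in control mice and 52.4% after noise. The medians of the 4 markers were -0.51 in control and -0.38 after noise, and none passed the test in limma. In each condition 2 of them had an unadjusted p under 0.05, against 966 (control) and 920 (noise) of all 8695 tested probe sets. The summed signal of these 4 markers was 11694 to 12955 on the 6 arrays of 129X1/SvJ and 8649 to 11440 on the 4 arrays of B6.CAST. The part of these markers in the Egr2 difference was not tested.

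**Figure D4:**
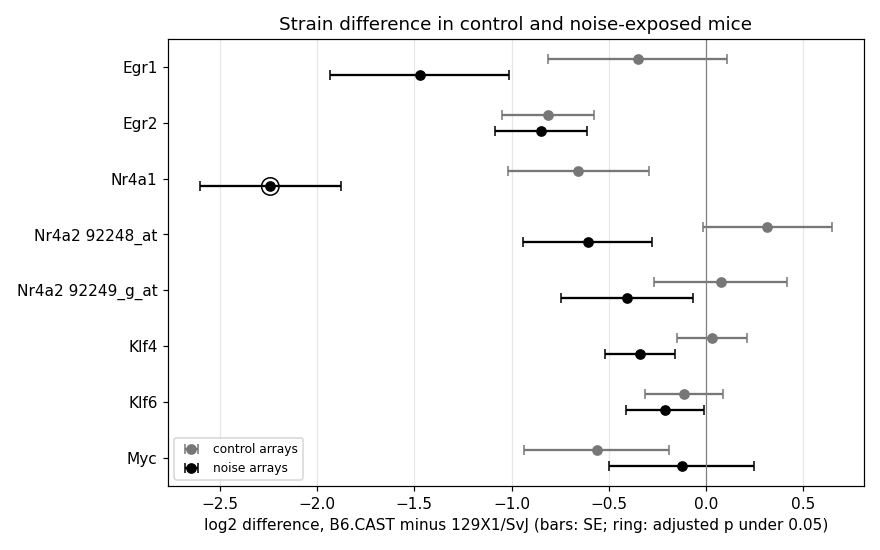
log2 difference between B6.CAST and 129X1/SvJ for the 8 tested probe sets in control and in noise-exposed mice, with bars of 1 SE and a ring at an adjusted p under 0.05. Nr4a1 after noise, at -2.24, is the 1 difference that passed the test, and Egr2 lies at -0.81 and -0.85 in the 2 conditions.

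Other genes of the same families and pathways were read from lists, with the brightest tested probe set for each gene. The lists were chosen with earlier results of these data known, so counts over them are descriptive. Over all 8695 tested probe sets, the unadjusted p with noise was under 0.05 for 1003 in 129X1/SvJ and 183 in B6.CAST. The corepressors Nab1 and Nab2, which bind Egr proteins and hold back their activity, were the 2 of 5 listed Egr relatives that could be tested. Nab2 was 0.43 ± 0.23 (SE) higher with noise in 129X1/SvJ and 0.59 ± 0.28 (SE) in B6.CAST, and Nab1 0.25 ± 0.15 and 0.13 ± 0.18 (SE), none past the test in limma or with an unadjusted p under 0.05. Of 5 tested nuclear receptor relatives of the Nr4a genes, 0 were called with noise in limma, and in neither strain was an unadjusted p under 0.05. The 2 of smallest p in the mean effect were Nr2f1 and Nr2f2, which are receptors of the COUP-TF group, at 0.13 and -0.09.

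Of 10 other Klf and Sp factors, 7 were higher with noise in each strain and none was called in limma (unadjusted p under 0.05 in 2 and 1), with median changes of 0.28 and 0.18. Klf9, a glucocorticoid-responsive factor, was 1.12 ± 0.35 (SE) higher in 129X1/SvJ (adjusted p = 0.290 in limma) and 0.47 ± 0.43 (SE) in B6.CAST, and Klf3, a repressor, 0.13 ± 0.17 and 0.48 ± 0.20 (SE). In the network of Myc, Max and Mxd proteins, 3 of 8 tested genes were higher in 129X1/SvJ and 5 of 8 in B6.CAST, with medians of -0.12 and 0.06. None was called in limma (unadjusted p under 0.05 in 1 and 0). Mxd4, which competes with Myc for Max, was -0.36 ± 0.13 (SE) in 129X1/SvJ and -0.08 ± 0.16 (SE) in B6.CAST, and Mycl, a Myc relative, 0.26 ± 0.25 and 0.40 ± 0.30 (SE).

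Of 14 tested genes of serum response factor, ERK and CREB signalling, none was called with noise in limma (unadjusted p under 0.05 in 2 and 0), and 7 were higher in 129X1/SvJ and 6 in B6.CAST. Crem, a cyclic AMP-responsive relative of CREB, was 0.19 ± 0.28 and 0.53 ± 0.35 (SE). Elk3, a partner of serum response factor, was called higher in B6.CAST than in 129X1/SvJ in control mice, by 1.90 ± 0.39 (SE; adjusted p = 0.0472 in limma). Elk3 was the 1 of the 14 called there, against 80 of all 8695 tested probe sets, of which 30 were lower in B6.CAST. Its mean signals were 18.5 (control) and 66.3 (noise) in 129X1/SvJ and 117.0 and 91.3 in B6.CAST. The call lay close to the threshold of 0.05, and the control mean of 129X1/SvJ was below the lowest mean signal kept, 42.9.

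Genes reported elsewhere as targets of these factors were counted in the same way, beside 3912 of all 8695 tested probe sets that were higher with noise in 129X1/SvJ (median -0.04) and 4448 in B6.CAST (median 0.0065). Of all 8695, limma called 0.460% higher with noise in 129X1/SvJ and 0.0460% in B6.CAST. The target lists too were chosen with earlier results of these data known, and the counts describe them only. Of 11 tested Egr targets, 9 were higher with noise in each strain, with medians of 0.23 and 0.14, and 1 was called. Mmp14, a membrane-bound matrix metalloproteinase, rose by 0.83 ± 0.15 (SE; adjusted p = 0.0324 in limma) in 129X1/SvJ and was 0.10 ± 0.18 (SE) in B6.CAST. Icam1, an adhesion molecule for leukocytes, was 1.60 ± 0.36 (SE; adjusted p = 0.116) and 1.20 ± 0.44 (SE). Of 11 tested Nr4a targets, 4 were higher in 129X1/SvJ and 5 in B6.CAST, with none called in limma (unadjusted p under 0.05 in 1 and 0). Pdk4, which restrains glucose oxidation, was 0.94 ± 0.42 and 0.39 ± 0.51 (SE), and Star, which moves cholesterol into mitochondria, was 0.08 ± 0.32 and 0.58 ± 0.40 (SE).

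Of 10 tested targets of Klf4 and Klf6, 9 were higher with noise in 129X1/SvJ and 7 in B6.CAST, with medians of 0.48 and 0.17. Atf3, a stress-induced transcription factor, rose by 2.15 ± 0.34 (SE; adjusted p = 0.0134 in limma) in 129X1/SvJ and was 1.39 ± 0.41 (SE) in B6.CAST. Cdkn1a, the cell cycle inhibitor p21, was 0.96 ± 0.24 and 0.59 ± 0.29 (SE) and was not called. Of 20 tested Myc targets, 16 were higher in 129X1/SvJ and 13 in B6.CAST, with medians of 0.17 and 0.05. The 1 gene called was Gadd45a, a growth arrest and DNA damage gene that Myc is known to repress, which rose by 1.16 ± 0.15 (SE; adjusted p = 0.00335 in limma) in 129X1/SvJ and was 0.69 ± 0.18 (SE) in B6.CAST. Nop56, of ribosome assembly, was 0.63 ± 0.19 and 0.24 ± 0.23 (SE).

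**Figure D5:**
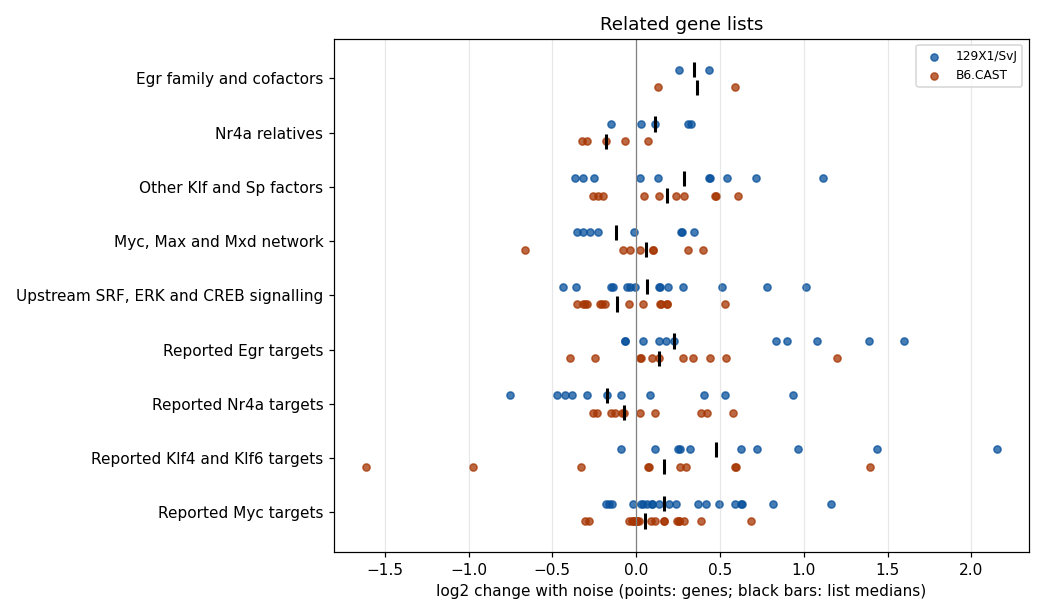
log2 change with noise of every tested gene of the related lists, by strain, with black bars at the list medians. In 129X1/SvJ the medians run from -0.17 for reported Nr4a targets to 0.48 for reported Klf4 and Klf6 targets.

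Across the 10 arrays, the 3 genes most like each early-response gene were taken from 6506 genes by Pearson's correlation of log2 values. These values describe the arrays, which share strain, exposure and pools, and rank genes after a search over all of them. Nearest to Egr1 were Mafk (r = 0.986), a small Maf factor, Atf3 (0.975) and Jun (0.970), a subunit of AP-1. Within groups, after group means were taken out, these 3 had r of 0.947, 0.898 and 0.895. Noise array 1 of 129X1/SvJ carries much of the within-group spread of Egr1, at 11.45 against 9.70 and 9.74 on the other noise arrays there. Spearman's rank correlation with Egr1 over the 10 arrays was 0.964 for Mafk, 0.976 for Atf3 and 0.855 for Jun. Nearest to Nr4a1 were Gadd45b (0.983), the relative of Gadd45a, Cebpd (0.967), an acute-phase transcription factor, and Gpr3 (0.961), a receptor that raises cyclic AMP, with 0.849, 0.808 and 0.703 within groups. Nr4a2, read by 92248_at, was nearest to Mapk8, Timp1 and Cxcl1 (0.959, 0.928 and 0.924), with 0.807, 0.730 and 0.586 within groups. The other Nr4a2 probe set, 92249_g_at, correlated less with 92248_at (0.826) than these genes did, and at 0.928 with Egr1. Klf4 was nearest to Ch25h (0.980), which makes 25-hydroxycholesterol, Phlda1 (0.950) and Ifrd1 (0.944), with 0.897, 0.774 and 0.801 within groups. Klf6 was nearest to Icam1 (0.973), Plxna2 (0.966) and Osmr (0.960), the oncostatin M receptor, with 0.969, 0.926 and 0.940 within groups. Egr2 was nearest to Itga7 (0.942), Igfbp6 (0.933) and Slc4a3 (0.922), with 0.683, 0.623 and 0.827 within groups. Myc was nearest to Nynrin (0.907), Rcc2 (0.892) and Scarb2 (0.885), with 0.928, 0.873 and 0.863 within groups.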

How the data were processed

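The authors deposited 1 linear signal intensity per probe set and array. From the values, each array had been scaled, since the mean without the lowest and highest 2% lies between 500.268 and 500.304 on every array. The sources used here name neither the software nor a build. Gene symbols come from the platform annotation, updated with RefSeq gene tables of GRCm38.p6.

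From the intensities, log2(intensity + 16) was taken and quantile normalised, and the 66 control probe sets and the dimmest 30% of the others were left out. The model, in limma 3.58.1 under R 4.3.3, had a mean for each of 4 groups over 10 arrays and moderated variances along a trend. Benjamini-Hochberg adjustment ran over all 8695 probe sets, with a threshold of 0.05. The 6 comparisons were noise in each strain, the mean and difference of these effects, and strain in each condition. Named genes were the 7 genes, the 3 nearest by correlation to each, and from each list those called in any comparison and the 2 of smallest p in the mean noise effect. The members and lists were chosen with earlier results of these data known. Replicate numbers were not used to pair arrays in this model. Deviations of same-numbered arrays from their group means correlated between -0.389 and -0.150, which cannot decide whether the arrays are paired. Alternatives covered scaling, pseudocount, filter, variance model, arrays and threshold. The number of arrays limits the precision.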

Additional observations from a re-analysis of the deposited data

How the results depend on the processing

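Over 955 recomputed values for single probe sets, 913 kept their direction and their side of the threshold, 15 lost a call, 5 gained one and 22 changed sign. The calls in B6.CAST noise, the difference of noise effects and the strain difference in control stayed at 0 in all alternatives. In 129X1/SvJ, the count with noise was 2 and became 1 with no filter, no variance trend, only the groups compared, the replicate block, or without both arrays of high Gapdh ratio, became 3 with array weights or a threshold of 0.10, and lay between 1 and 2 with 1 array left out. The call lost was Egr1 each time, and Nr4a1 was called in all 21 alternatives (2.49 to 3.09). For the mean noise effect the count of 1 became 2 with the values as deposited, median centring, array weights or a threshold of 0.10, became 0 without both arrays of high Gapdh ratio, and lay between 1 and 2 with 1 array left out. For strain after noise the count of 1 became 0 with only the groups compared or without both arrays of high Gapdh ratio, and lay between 0 and 1 with 1 array left out. Over all probe sets, the count with noise in 129X1/SvJ was 44. It became 30 with no variance trend, 34 with only the groups compared and 25 with the replicate block. It became 71 with array weights, 68 at a threshold of 0.10 and 40 of 12422 with no filter. For the mean effect the 40 called became 43 as deposited, 33 with median centring, 54 with array weights and 52 at 0.10. For strain after noise the 126 called became 53 with only the groups compared. The causes were not tested.

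With the replicate block, 25 probe sets in all were called for noise in 129X1/SvJ against 44 without it, and the blocked fit called Nr4a1 and not Egr1 (adjusted p = 0.0842 in limma). No same-numbered pair correlated above 0. Deviations within a group of 2 or 3 arrays sum to 0, so these correlations cannot decide whether the numbers pair the arrays. The crossed pairing in B6.CAST, added after seeing the data, called 4 probe sets and none of the 8. The strain comparisons have no blocked value, and the mean and difference have none from only the groups compared, because those fits need all 4 groups or numbers shared across strains.

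The signs that turned were of values that lay between -0.21 and 0.07 in the reported fit. The difference of noise effects in Egr2 was 0.14 with median centring, 0.059 without both arrays of high Gapdh ratio, and -0.22 to 0.21 with 1 array left out. That of Klf6 was 0.11 with median centring, 0.058 with array weights and -0.32 to 0.13 with 1 array left out. For strain in control, Klf4 was -0.0066 with median centring, -0.028 with array weights and -0.13 to 0.14 with 1 array left out, Klf6 was 0.015 without both arrays of high Gapdh ratio and -0.26 to 0.015 with 1 left out, and Nr4a2 (92249_g_at) ran from -0.0080 to 0.16. For strain after noise, Klf6 ran from -0.43 to 0.014, and Myc was 0.11 with array weights and ran from -0.47 to 0.21.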
